A study of Oryza sativa Japonica Group with 6 samples.

Results

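The genes described here are 3 globulin genes of rice endosperm: the alpha-globulin gene OS05G0499100 and 2 globulin-like cupin genes, OS03G0793700 and OS03G0663800. They were taken by gene ID from a table of 93655 features, and the names come from the description used to choose them because the table itself holds gene IDs alone. They were chosen with the difference between the genotypes already known, so their levels and differences are given as a description, with no test. All 3 had reads in all 6 libraries and a mean over them of 1 FPKM or more, where FPKM is a read count scaled to gene length and library total; for OS03G0663800 this mean was carried by the nf-yc11 libraries.

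RNA sequencing was done on endosperm of nf-yc11 mutant plants (3 libraries) and of wild type plants (WT, 3 libraries), all taken 7 days after pollination. The series title names the cultivar ZH11, a japonica rice. The labels give neither the allele nor the locus of the mutation, and they do not say whether libraries of a group came from separate plants, so the spread between libraries may be technical. The read totals behind the values were 15735968 to 16989039 in nf-yc11 libraries and 14593215 to 21984785 in WT libraries. The feature listed as NF-YC11, OS05G0304800, was at 106, 111 and 112 FPKM in nf-yc11 libraries, against 125, 124 and 130 FPKM in WT libraries. The transcript was thus present in the libraries labelled nf-yc11 at 0.87 times its WT mean, and these levels do not show which gene was altered.

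Rice endosperm stores protein in several forms. Glutelins, the main storage proteins, belong to the cupin fold family and are packed into protein storage vacuoles. Prolamins are held in bodies within the endoplasmic reticulum. The alpha-globulin is a small salt-soluble protein that shares its cysteine-rich fold with prolamins and with the seed allergens of the alpha-amylase and trypsin inhibitor type, yet it is deposited in the storage vacuole beside the glutelins. The cupin globulins are relatives of the vicilins of legume seeds, and in maize and barley such globulins are known from the embryo and the aleurone.

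The alpha-globulin gene was the most abundant feature in each of the 6 libraries. It stood at 49324, 49025 and 49215 FPKM in nf-yc11 libraries 1 to 3, against 41286, 41903 and 40893 FPKM in WT libraries 1 to 3. Every nf-yc11 library lay above every WT library, and the groups were narrow beside the gap between them. The means were 49188 ± 151 FPKM in nf-yc11 and 41361 ± 509 FPKM in WT (SD, n = 3 each), a ratio of 1.19. The reads behind these values were 610834 to 658022 in nf-yc11 libraries and 469652 to 714334 in WT libraries, which is 3.86% to 3.88% of the reads of an nf-yc11 library and 3.22% to 3.30% of those of a WT library. Counting error is therefore small: the exact Poisson 95% interval of nf-yc11 library 1 ran from 49200 to 49447 FPKM, and that of WT library 2 from 41789 to 42018 FPKM. These intervals cover counting error only.

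**Figure D1:**
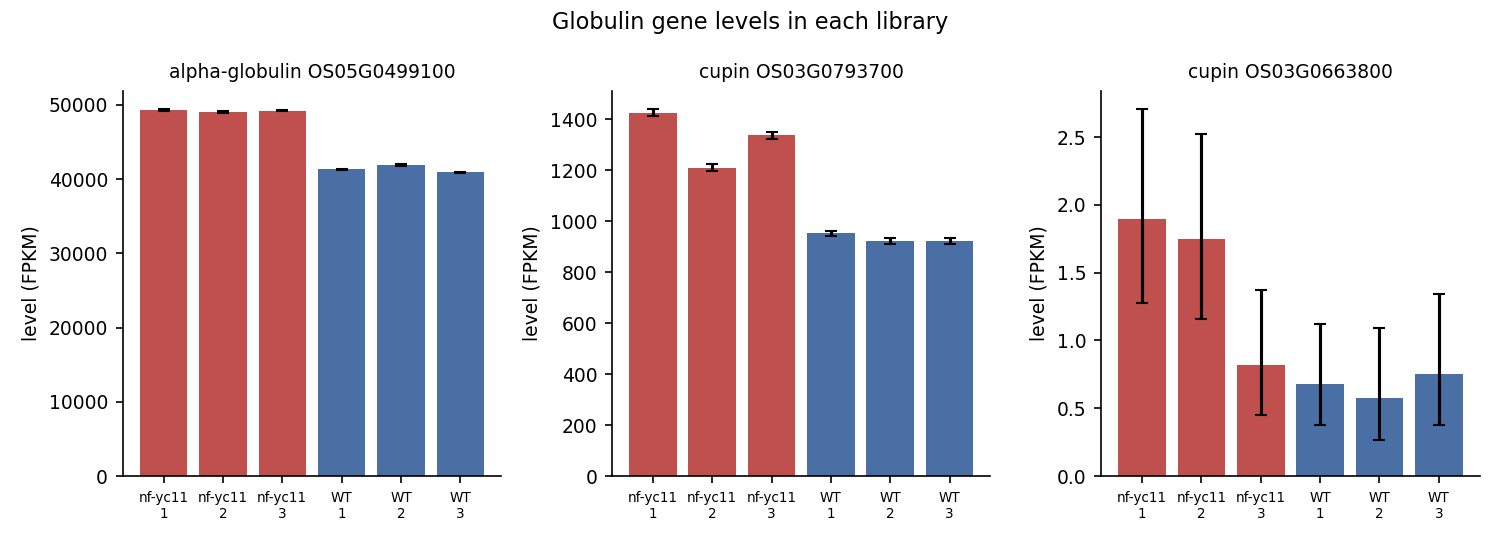
Level of each globulin gene in FPKM (linear axes from 0) in the 3 nf-yc11 libraries (red) and the 3 WT libraries (blue), with exact Poisson 95% intervals for counting error as bars. The alpha-globulin gene and the cupin gene OS03G0793700 are separated by far more than counting error, whereas for OS03G0663800 the interval of nf-yc11 library 3 (0.448 to 1.38 FPKM) overlaps those of all WT libraries, and those of nf-yc11 libraries 1 (1.28 to 2.71 FPKM) and 2 (1.16 to 2.52 FPKM) overlap that of WT library 3 (0.374 to 1.34 FPKM).

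The cupin globulin gene OS03G0793700 was the second of the 3 in level, and ranked between place 59 and place 89 of all features. It had 1426, 1209 and 1337 FPKM in nf-yc11 libraries, against 953, 921 and 922 FPKM in WT libraries. The groups did not overlap, and the nf-yc11 libraries were spread more widely than the WT libraries. The means were 1324 ± 109 FPKM in nf-yc11 and 932 ± 18.0 FPKM in WT (SD, n = 3 each), a ratio of 1.42. The alpha-globulin gene stood 37.3 ± 3.01 times higher than this cupin gene in nf-yc11 libraries and 44.4 ± 1.07 times higher in WT libraries.

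The cupin globulin gene OS03G0663800 was close to the limit of detection. It was counted with 30, 28 and 14 reads in nf-yc11 libraries, against 15, 9 and 11 reads in WT libraries. In FPKM this was 1.90, 1.75 and 0.820 in nf-yc11 libraries and 0.679, 0.574 and 0.750 in WT libraries. Here nf-yc11 library 3 lay just above the highest WT library, by a gap of little more than the worth of 1 read (0.0586 FPKM in that library). The means were 1.49 ± 0.583 FPKM in nf-yc11 and 0.668 ± 0.0887 FPKM in WT, a ratio of 2.23 that rests on the other two nf-yc11 libraries. On the log2(FPKM + 1) scale the difference, nf-yc11 minus WT, was 0.55, and it was 0.98 with a pseudocount of 0.1 in place of 1. The order of levels, alpha-globulin first, then OS03G0793700 and then OS03G0663800, was the same in all 6 libraries, with no overlap between neighbours.

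For all 3 genes every nf-yc11 library was above every WT library, and 35.3% of the 22093 features averaging 1 FPKM or more showed the same separation in that direction. As the genes were chosen on this contrast, nothing is read from that count. On the log2(FPKM + 1) scale the differences were 0.25 for the alpha-globulin gene and 0.50 for OS03G0793700, and the median over all these features was 0.06. Of the 22093 features, 6980 had a larger positive log2 difference than the alpha-globulin gene and 3154 a larger one than OS03G0793700. In absolute terms the gain of the alpha-globulin gene, 7827 FPKM, was the second largest of all features. The largest, 9652 FPKM, belonged to OS03G0670700, whose WT libraries ranged from 11685 to 17192 FPKM.

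How much of the alpha-globulin difference is seen depends on the scaling between libraries. The log2 difference was 0.18 with size factors or TMM factors, and 0.14 with the library total taken without the 100 most abundant features, a scaling chosen after seeing the data. With quantile normalization it was 0 by construction, because the gene held first place in every library and so received the same value in each. Other genes near the top receive only the values of the few places they hold. Quantile results for abundant storage protein genes are therefore limited in the same way. For OS03G0793700 the difference stayed between 0.38 and 0.50 under these 4 scalings and the unscaled values.

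A share of the library is unchanged by the 3 scalings that multiply a whole library by 1 factor, but not by quantile normalization, which gives the first-ranked gene the same share in every library. The alpha-globulin gene made up 5.19%, 5.09% and 5.15% of summed FPKM in nf-yc11 libraries, against 4.44%, 4.51% and 4.42% in WT libraries. The groups did not overlap, and the difference of the means was 0.69 percentage points. OS03G0793700 made up 0.138% ± 0.0123 of summed FPKM in nf-yc11 libraries and 0.1004% ± 0.00178 in WT libraries (SD, n = 3 each). OS03G0663800 made up less than 0.001% in each library. The 3 genes together stood at 5.28% ± 0.0628 of summed FPKM in nf-yc11 and 4.55% ± 0.0445 in WT.

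The listed storage protein genes as a whole moved the other way. The 3 globulin genes, 10 glutelin genes, 12 prolamin genes and 8 seed allergen genes together made up 20.8% ± 0.0872 of summed FPKM in nf-yc11 libraries and 22.8% ± 0.302 in WT libraries. Glutelins stood at 4.89% ± 0.0280 in nf-yc11 and 6.70% ± 0.0882 in WT, and prolamins at 5.72% ± 0.209 in nf-yc11 and 6.87% ± 0.167 in WT. Seed allergens stood at 4.89% ± 0.0625 in nf-yc11 and 4.68% ± 0.0456 in WT. The lists do not hold every such gene, and glutelin, prolamin and seed allergen genes have near-identical copies among which reads may have been split, so sums are given in preference to single members. The read counter is not given. If reads shared by copies were left out, these sums are too low, which was not tested. In bulk RNA, fewer cells of a type and less RNA per cell cannot be told apart.

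**Figure D2:**
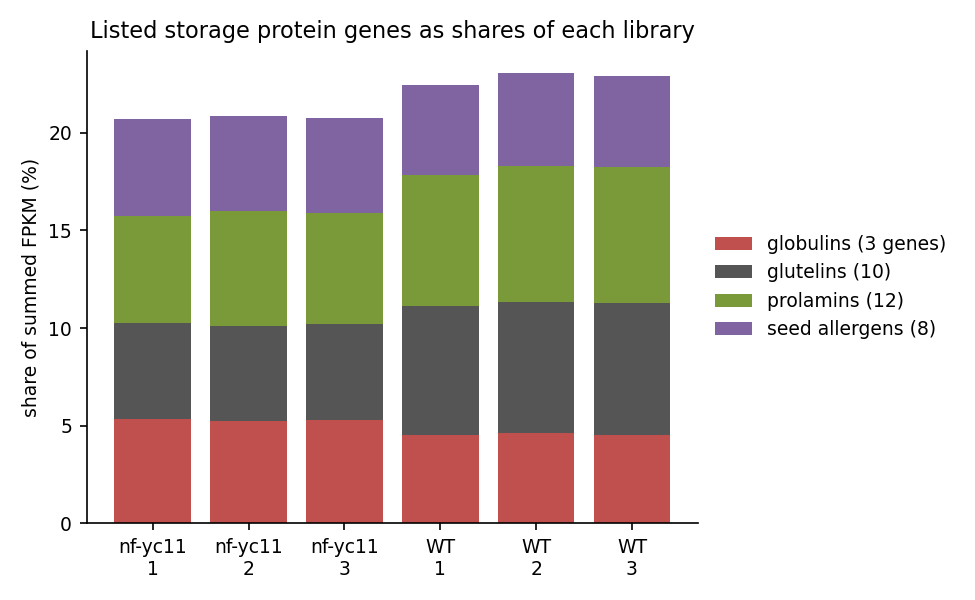
Share of summed FPKM (%) taken by the listed globulin, glutelin, prolamin and seed allergen genes, stacked for each nf-yc11 and WT library. The red globulin part is larger in the 3 nf-yc11 libraries (5.21% to 5.34%) than in the 3 WT libraries (4.52% to 4.60%), while the glutelin and prolamin parts and the whole stack are smaller.

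Within this pool the alpha-globulin gene took 25.05%, 24.4% and 24.8% of the storage protein FPKM in nf-yc11 libraries, against 19.7%, 19.5% and 19.3% in WT libraries. The groups did not overlap, and the means differed by 5.21 percentage points. The ratio of the alpha-globulin gene to the summed glutelin genes was 1.06, 1.05 and 1.05 in nf-yc11 libraries, against 0.672, 0.671 and 0.652 in WT libraries. In the deposited values this single gene thus had more FPKM than the 10 listed glutelin genes together in each nf-yc11 library, and less than them in each WT library. Where the ratio stands beside 1 depends on how reads shared by glutelin copies were counted, which is not known. Against the summed prolamin genes the ratio was 0.900 ± 0.0417 in nf-yc11 and 0.648 ± 0.0137 in WT. Against the summed seed allergen genes it was 1.05 ± 0.0101 in nf-yc11 and 0.951 ± 0.00474 in WT.

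Of the 10 glutelin genes, all 10 fell and none rose (limma on log2(FPKM + 1), adjusted p under 0.05 over all 22093 features), with a median log2 difference of −0.59. This list and those below were chosen with earlier results of these data known. Their counts and p-values therefore describe this contrast and are no independent test of it. By this test 49.1% of all features were called, 29.8% as higher and 19.3% as lower in nf-yc11. That split was 6586 higher and 4256 lower, but 5425 and 5265 with quantile normalization and 5010 and 5740 once the 100 most abundant features were left out of the library totals. With quantile normalization 8 glutelin genes fell. No glutelin gene was called higher under any of the scalings, at an unadjusted p under 0.05 (0 genes) or by voom on recovered reads (0 genes). Over all features 7409 were higher and 4876 lower at an unadjusted p under 0.05, and 7105 higher and 4591 lower by voom. GluA1, the most abundant glutelin gene, was at 13325, 13326 and 13550 FPKM in nf-yc11 libraries, against 15543, 15709 and 15923 FPKM in WT libraries (log2 difference −0.23 ± 0.02 SE, adjusted p = 0.000165, limma). The alpha-globulin gene stood 3.67 ± 0.0354 times higher than GluA1 in nf-yc11 libraries and 2.63 ± 0.0543 times higher in WT libraries. GluD1 fell 2.36-fold, with 584 ± 10.9 FPKM in nf-yc11 and 1377 ± 12.7 FPKM in WT, and the listed glutelin gene OS02G0248800 fell 2.41-fold. GluA3 fell 1.51-fold, with 8547 ± 71.8 FPKM in nf-yc11 and 12868 ± 181 FPKM in WT.

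Prolamin genes were mixed. The test called 5 of 11 lower and 1 higher and left 5 uncalled, beside 19.3% lower and 29.8% higher over all features. The median log2 difference was −0.36. Of 14 listed IDs, 12 were matched in the table, and 1 of these was at 0 in every library. The most abundant, OS03G0766100, had the largest loss in FPKM of all features: it stood at 19860, 21814 and 20557 FPKM in nf-yc11 libraries, against 27735, 28706 and 28539 FPKM in WT libraries (log2 difference −0.45 ± 0.04 SE, adjusted p = 0.000132, limma). The alpha-globulin gene was 2.38 ± 0.119 times as high as this gene in nf-yc11 libraries and 1.46 ± 0.0279 times as high in WT libraries. OS07G0219400 and OS06G0507100 fell 1.48-fold and 1.49-fold. Under quantile normalization 7 prolamin genes were lower and 2 higher, beside 5265 lower and 5425 higher over all features. The one that rose without it, OS05G0330600, was low, at 15.2 ± 0.293 FPKM in nf-yc11 and 8.12 ± 0.142 FPKM in WT.

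Seed allergen genes, whose proteins share the fold of the alpha-globulin, went both ways. Beside 29.8% higher and 19.3% lower over all features, the test called 3 of 8 higher and 3 lower and left 2 uncalled. The median log2 difference was −0.002. These counts hung on the scaling: quantile normalization gave 5 higher and 2 lower, and the total without the 100 most abundant features gave 2 higher and 5 lower. Over all features the former gave 5425 higher and 5265 lower, and the latter 5010 higher and 5740 lower. The most abundant, OS07G0215500, rose: it had 19276, 19210 and 18734 FPKM in nf-yc11 libraries, against 13668, 13752 and 13625 FPKM in WT libraries (log2 difference 0.48 ± 0.02 SE, adjusted p = 1.12e-05, limma). Its relative rise, 1.39-fold, was larger than the ratio of 1.19 of the alpha-globulin gene, so the ratio of alpha-globulin to this gene was lower in nf-yc11, at 2.58 ± 0.0415 against 3.02 ± 0.0230 in WT. OS07G0214600 also rose, as it and OS07G0215500 did under all 4 scalings, with 4739 ± 61.2 FPKM in nf-yc11 and 3832 ± 52.7 FPKM in WT. OS07G0216600 fell, with 5124 ± 38.3 FPKM in nf-yc11 and 6530 ± 172 FPKM in WT. Under quantile normalization its log2 difference was 0.14. It held place 19 or 20 in every library, so quantile normalization could give it only the values of those places. That sign is thus a matter of place and is not read as a rise.

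**Figure D3:**
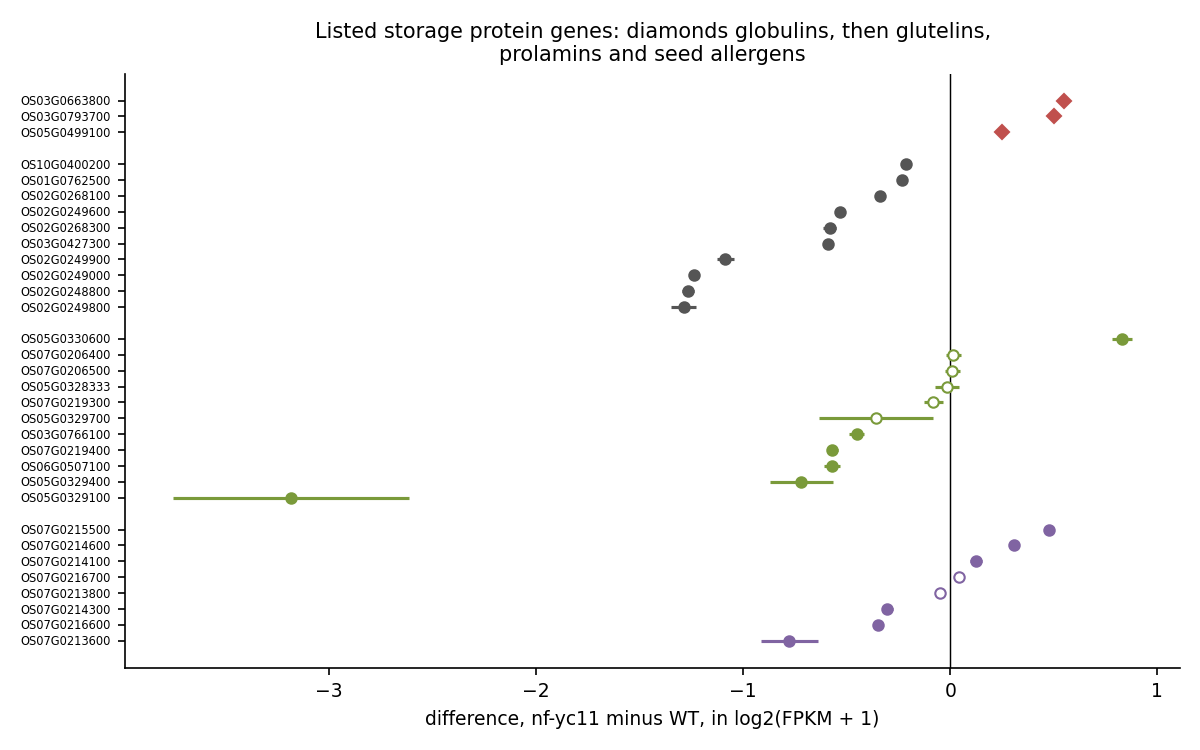
Difference between nf-yc11 and WT in log2(FPKM + 1) for each listed storage protein gene, in blocks from the top: globulins (diamonds, no error bar since they were not tested), glutelins, prolamins and seed allergens (circles with SE; filled where the adjusted p was under 0.05). The 3 globulin genes lie between 0.25 and 0.55, all 10 glutelin genes lie below 0, and the seed allergen genes lie on both sides.

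The pattern over the 6 libraries was compared by Pearson's r of log2(FPKM + 1), given as a description since most of it is the difference between the groups. Among 66 other list genes, the closest to the alpha-globulin gene were the listed prolamin gene OS05G0330600 (r = 0.998) and the seed allergen genes OS07G0215500 (0.996) and OS07G0214600 (0.993). Of 22092 features, 61, 117 and 314 were closer to the alpha-globulin gene than these, in that order. The most opposite was OS11G0242800, listed as a light-harvesting gene (r = −0.999). OS03G0793700 was closest to OS04G0546500, listed as the oleosin gene OLE16 (r = 0.997, with 23 of 22092 features closer). Next were the alpha-globulin gene (0.96, with 1234 features closer) and OS07G0215500 (0.96, with 1401 closer). The list gene most opposite to OS03G0793700 was the prolamin gene OS03G0766100 (r = −0.995). For OS03G0663800 the highest r with a list gene was 0.81, for OS07G0215500, and 2020 features were closer.

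The oleosin gene OS04G0546500, which encodes a coat protein of oil bodies in embryo and aleurone, was the list gene closest to OS03G0793700 in pattern. It had 2688, 2456 and 2605 FPKM in nf-yc11 libraries, against 2035, 2031 and 2010 FPKM in WT libraries (log2 difference 0.35 ± 0.03 SE, adjusted p = 0.000298, limma). In both genes nf-yc11 library 2 was the lowest of its group. Among WT libraries, library 3 was lowest for the oleosin gene. For the cupin gene WT libraries 2 and 3 were level within counting error (921 and 922 FPKM). The cupin gene stood at 0.531, 0.492 and 0.513 of this oleosin gene in nf-yc11 libraries, against 0.468, 0.454 and 0.459 in WT libraries. Relative to the other listed oleosin gene, OLE18, the cupin gene stood at 0.542 ± 0.0274 in nf-yc11 and 0.406 ± 0.0224 in WT.

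The markers of embryo and aleurone as a list were mixed. The test called 1 of 8 higher and 4 lower, beside 29.8% higher and 19.3% lower over all features, and a ninth was below the filter. Without WT library 1, 2 or 3 or nf-yc11 library 3, 2 were called lower, and without WT library 3 or nf-yc11 library 1, 2 were called higher. Leaving out 1 library gave 5584 to 5919 higher and 3423 to 3844 lower over all features. RAB21, a dehydrin gene, fell, with 227 ± 1.24 FPKM in nf-yc11 and 252 ± 5.60 FPKM in WT. The second oleosin gene, OLE18, was at 2442 ± 84.8 FPKM in nf-yc11 and 2302 ± 158 FPKM in WT and was not called (adjusted p = 0.211, limma). The summed level of the 9 markers was 5443 to 5839 FPKM in nf-yc11 libraries and 4822 to 5169 FPKM in WT libraries, most of it from the 2 oleosin genes, and none was at 0. Whether such tissue had a part in the level of OS03G0793700 was not tested.

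Markers of the other tissues were present in both groups. Their counts stand beside 29.8% of all features called higher and 19.3% called lower. The 6 starchy endosperm markers summed to 5484 to 5548 FPKM in nf-yc11 libraries and 7140 to 7292 FPKM in WT libraries, with 5 lower and 1 higher. The 8 markers of green pericarp, the maternal layer around the grain, summed to 2296 to 2430 FPKM in nf-yc11 libraries and 2623 to 2634 FPKM in WT libraries, with 2 higher, 3 lower and 3 not called, though none was called higher under any of the 4 scalings or without WT library 1, 2 or 3. None of these markers was at 0, and their part in the globulin levels was not tested.

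No listed regulator of storage protein genes was called higher. The limma test called 5 of 7 lower and 0 higher, beside 19.3% lower and 29.8% higher over all features. The median log2 difference was −0.23, and 0 were higher at an unadjusted p under 0.05 or by voom. The 7 include OS05G0304800, listed as NF-YC11, the name in the genotype label. That feature was among those called lower (adjusted p = 0.0037, limma). Under quantile normalization, or without the 100 most abundant features in the totals, all 7 were lower. Over all features 5265 and 5740 were lower, in that order. NF-YB1, an endosperm NF-Y subunit, fell 1.83-fold, with 240 ± 4.42 FPKM in nf-yc11 and 439 ± 14.7 FPKM in WT (adjusted p = 7.93e-06, limma). OS10G0191900, listed as NF-YC12, fell 3.93-fold and OS01G0104500, listed as NAC20, fell 1.59-fold. OS02G0252400, listed as the Dof factor gene RPBF, was at 539 ± 25.3 FPKM in nf-yc11 and 543 ± 4.07 FPKM in WT and was not called (adjusted p = 0.814, limma), but it was called lower under quantile normalization (log2 difference −0.13, adjusted p = 0.0139, limma) and with totals lacking the 100 most abundant features (−0.12, adjusted p = 0.0399, limma).

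Of 6 genes that fold, sort or cut storage proteins on the way to the vacuole, 2 fell and 4 were not called (limma). Over all features 19.3% were called lower and 29.8% higher. None of the 6 rose, with 0 higher also at an unadjusted p under 0.05 and by voom. At an unadjusted p under 0.05, and with size factors, TMM factors or voom, 3 were lower. Over all features these gave 4876, 5215, 5212 and 4591 lower, in that order. With quantile normalization or the total without the 100 most abundant features, 4 were lower, beside 5265 and 5740 over all features, in that order. PDIL1-1, a protein disulfide isomerase, fell, with 1748 ± 46.1 FPKM in nf-yc11 and 2335 ± 35.6 FPKM in WT. GPA1, a Rab5 GTPase gene of vacuolar transport, fell 3.59-fold, with 2.57 ± 0.233 FPKM in nf-yc11 and 9.22 ± 0.960 FPKM in WT. VPE1, the gene of the protease that cuts proglutelin, was at 131 ± 1.60 FPKM in nf-yc11 and 139 ± 3.33 FPKM in WT and was not called (adjusted p = 0.0593, limma).

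The features numbered next to the globulin genes were read as well, 2 on each side, since reads of overlapping features can be split. Beside the alpha-globulin gene the highest of these had 2.46 ± 0.438 FPKM in nf-yc11 and 1.81 ± 0.150 FPKM in WT, and beside OS03G0793700 the highest had 1.24 ± 0.307 FPKM in nf-yc11 and 0.462 ± 0.153 FPKM in WT. Next to OS03G0663800, in contrast, stood an abundant feature, OS03G0663750, named here after its values were seen. It had 2195, 1990 and 2093 FPKM in nf-yc11 libraries, against 1164, 1171 and 1175 FPKM in WT libraries, a rise of 1.79-fold (log2 difference 0.84 ± 0.04 SE, adjusted p = 1.32e-05, limma). Its 29694 to 61586 reads per library compare with 9 to 30 for OS03G0663800. Over the 6 libraries its r was 0.99 with the alpha-globulin gene, 0.98 with OS03G0793700 and 0.79 with OS03G0663800. On the other side, OS03G0663900 was at 4.95 ± 0.741 FPKM in nf-yc11 and 0.497 ± 0.149 FPKM in WT. The table gives no position or strand, so whether OS03G0663750 and OS03G0663800 overlap was not tested, and the level of OS03G0663800 is uncertain for that reason.

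**Figure D4:**
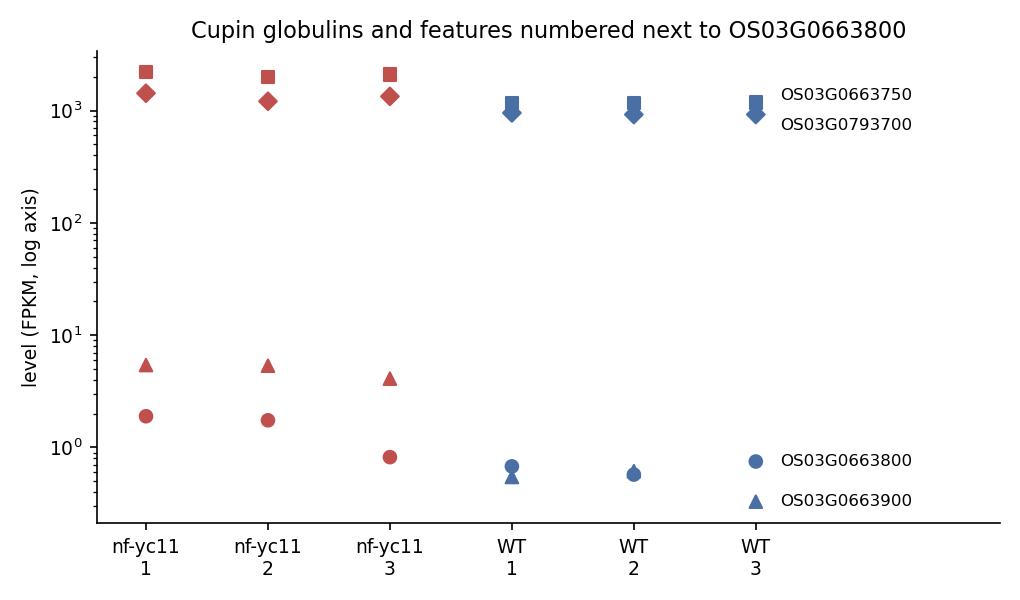
Level in FPKM (log axis) of the cupin globulin genes OS03G0793700 (diamonds) and OS03G0663800 (circles) and of the features numbered just before and just after OS03G0663800, namely OS03G0663750 (squares) and OS03G0663900 (triangles), in nf-yc11 (red) and WT (blue) libraries. OS03G0663750 lies at 1164 to 2195 FPKM, near OS03G0793700, whereas OS03G0663800 lies at 0.574 to 1.90 FPKM.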

How the data were processed

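The authors deposited 1 table of FPKM values for 6 endosperm libraries, and the genotype labels set the groups. CASAVA 1.7, HISAT2 2.0.5 and DESeq appear in the submitters' processing notes without their roles. The read counter is not given in the sources used here, nor is the genome build. Whole reads were recovered from the FPKM values for 36189 of 36189 features above 0 (100% of them, within 0.0001 of a whole number), with a length for each feature and a total for each library. The length was the smallest that made the reads whole, so it can be too small along with the reads. For features with reads in few libraries such a length is nearly always found, so the 100% is no check there. Recovered reads summed to 99.64% to 99.67% of the library totals.

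Tests used limma 3.58.1 in R 4.3.3 with a variance trend on log2(FPKM + 1), over the 22093 features averaging 1 FPKM or more, with Benjamini-Hochberg adjustment and a threshold of 0.05. The method was tested on simulated data. With 3 libraries a group, the smallest p of an exact permutation test is 0.1. Shares, ratios and Poisson intervals were computed in Python 3.11.15 with scipy 1.17.1. The globulin genes and all lists were chosen with earlier results of these data known. Apart from the globulin genes, the list genes named were mainly the most abundant of each list, up to 3 with the smallest adjusted p, and the closest and most opposite in pattern. VPE1, the feature listed as NF-YC11 and the prolamin genes OS07G0206500 and OS07G0206400 were named as well. Outside the lists, OS03G0670700 was named for its gain, and OS03G0663750 and OS03G0663900 as features numbered next to OS03G0663800.

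IDs were paired with symbols from general knowledge. Of 71 list genes, 27 symbols were found on the right chromosome in a RefSeq gene table of another assembly, with none out of order. The order could not be checked for GluA2, VPE1, RAG2, CAB1R and GPA1, each the only symbol found on its chromosome. The others, called listed genes, were not found or, where the name was made for the lists, not looked up, and so are unchecked. The gene with the synonym GLB1 there lay elsewhere on chromosome 5 than the alpha-globulin ID would, so that symbol was not used. Protein and promoter sequences were not used here. Alternatives were another pseudocount, filters, scalings, no variance trend, a replicate block and leaving out each library, and after seeing the data voom on recovered reads and a total without the 100 most abundant features.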

Additional observations from a re-analysis of the deposited data

How the results depend on the processing

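Over the alternatives, the 10842 called features became 8320 to 11696 (11696 with voom on recovered reads, of which 10505 were shared), and 9075 to 9686 without 1 library. Scalings moved the median log2 difference of all features by −0.089 to −0.057. The alpha-globulin log2 difference was 0.18 with size factors, 0.18 with TMM factors, 0.14 with the total without the 100 most abundant features, 0 with quantile normalization, and 0.24 to 0.26 without 1 library. That of OS03G0793700 was 0.38 with quantile normalization, 0.40 without the 100 most abundant, and 0.45 to 0.57 without 1 library. That of OS03G0663800 was 0.98 with a pseudocount of 0.1, 1.03 with voom, and 0.42 to 0.76 without 1 library. With the gene left out of its own denominator the alpha-globulin share differed by 0.76 percentage points of all features and by 8.60 of storage protein genes, and without 1 library by 0.664 to 0.714 and by 5.05 to 5.39. Without 1 library, the share of OS03G0793700 differed by 0.0323 to 0.0446 points and that of OS03G0663800 by 6.16e-05 to 0.000119 points.

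Some counts of list members changed. With quantile normalization 2 prolamin genes and 5 seed allergen genes were higher, 4 folding and transport genes lower, and 0 pericarp markers higher. The total without the 100 most abundant gave 5 seed allergen genes and 4 folding and transport genes lower and 0 pericarp markers higher. Pericarp markers higher were also 0 with size factors, TMM factors or no filter, and 1 without the variance trend. Embryo and aleurone markers higher were 2 with no filter, at 5 FPKM or with the replicate block. Without 1 library, 1 to 2 embryo and aleurone markers were higher and 2 to 4 lower, and 0 to 3 pericarp markers were higher. The causes were not tested. OS07G0216600, at place 19 or 20 in every library, took a log2 difference of 0.14 with quantile normalization, a value set by those places.

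Same-numbered libraries share a number only: their deviations correlated at −0.05, 0.004 and −0.048, and the replicate block gave 9948 called features. The globulin genes are far above counting noise except OS03G0663800, whose 9 to 30 reads limit its precision.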
